A study of Mus musculus with 4 samples.

Results

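*Lef1*, *Cdx1* and *Rnf43*, genes linked to Wnt/β-catenin signaling, are 3 of the 1577 genes in the authors' deposited RNA-sequencing table. They were chosen by name as pathway genes, and each was found in the table by its Ensembl gene ID, paired with a symbol through GENCODE M21. The cells were 46C mESCs, a mouse ESC line known to carry a green fluorescent protein reporter at *Sox1*, so every sample came from 1 line. Total RNA was taken from cells exposed for 24 h to 5 μM Go6983, an inhibitor of the PKC family (2 samples), and from cells left in control medium without the inhibitor (NT, 2 samples). Both groups were grown in serum-containing medium. The study's routine medium for this line held serum and LIF, but whether LIF was kept in these cultures is not given in the sources used here.

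In Wnt/β-catenin signaling, a secreted Wnt ligand binds a Frizzled receptor and an Lrp co-receptor, the complex that marks β-catenin for destruction is held back, and β-catenin enters the nucleus to work with DNA-binding factors of the TCF/LEF family. *Lef1* encodes one of these factors and is itself a known target of the pathway. *Cdx1* encodes a caudal-type homeobox factor that patterns the embryonic axis and the intestine and responds to Wnt and to retinoic acid. *Rnf43* encodes a membrane E3 ubiquitin ligase that removes Frizzled receptors from the cell surface, and as a target of the pathway it is a feedback inhibitor. In mouse ESCs, Wnt signaling is known to favor self-renewal, while *Lef1* is also used as a marker of cells moving towards the formative and primed epiblast.

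The 3 genes were read against GRCm38, the build of GENCODE M21, since the table has no coordinates of its own. *Lef1* (ENSMUSG00000027985) is a protein-coding gene on the plus strand of chromosome 3, from 131110471 to 131224356. *Rnf43* (ENSMUSG00000034177) is a protein-coding gene on the plus strand of chromosome 11, from 87662722 to 87735539. *Cdx1* (ENSMUSG00000024619) is a protein-coding gene on the minus strand of its chromosome.

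RefSeq start-site windows (GRCm38.p6, 250 bases before and 50 after each start) were searched for the TCF/LEF core letters CTTTGA and CTTTGT on both strands, that is, also for TCAAAG and ACAAAG. Of the 10 Wnt pathway genes described here, 8 matched a window by symbol, with 14 windows in all, and *Cdx1* and *Myc* did not match. Both *Lef1* and *Rnf43* had more than one window. The first *Lef1* window and the first *Rnf43* window held none of these letters, and are shown beside the *Lef1* window that held 3 matches, in capitals, all on the strand opposite to the gene.
Lef1 first window, chr3:131110047-131110346, plus strand: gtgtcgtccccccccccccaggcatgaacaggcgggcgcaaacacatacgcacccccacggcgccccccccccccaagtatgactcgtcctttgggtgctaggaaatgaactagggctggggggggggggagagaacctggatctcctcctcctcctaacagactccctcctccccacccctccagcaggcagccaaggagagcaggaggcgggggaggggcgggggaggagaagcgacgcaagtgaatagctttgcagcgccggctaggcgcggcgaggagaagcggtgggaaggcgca
Lef1 window with matches, chr3:131156044-131156343, plus strand: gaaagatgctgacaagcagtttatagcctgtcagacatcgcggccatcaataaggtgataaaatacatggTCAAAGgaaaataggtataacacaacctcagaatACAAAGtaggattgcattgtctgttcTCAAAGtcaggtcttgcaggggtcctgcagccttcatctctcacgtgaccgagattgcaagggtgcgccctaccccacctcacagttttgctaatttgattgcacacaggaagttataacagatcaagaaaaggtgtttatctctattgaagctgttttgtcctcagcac
Rnf43 first window, chr11:87662837-87663136, plus strand: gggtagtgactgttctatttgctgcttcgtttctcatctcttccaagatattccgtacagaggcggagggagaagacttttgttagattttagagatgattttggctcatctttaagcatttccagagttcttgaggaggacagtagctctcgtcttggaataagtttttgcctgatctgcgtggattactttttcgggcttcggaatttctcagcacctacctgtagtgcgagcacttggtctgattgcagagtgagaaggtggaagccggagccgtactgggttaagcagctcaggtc
The first *Lef1* window lies wholly before the gene model of GENCODE, the second lies in an intron of it, and the *Rnf43* window lies wholly within annotated exons. The matches in the intronic *Lef1* window begin 180, 146 and 120 bases before that start site. *Dkk1*, another target, also had 3 matches in its window and *Wnt11* had 1. The other *Lef1* windows held none. In all, 3 of the 14 windows (21.4%) held at least 1 match, and 31.2% of all 32851 mouse windows did. Windows with 3 or more matches were 14.3% of the 14, those of *Lef1* and *Dkk1* alone, and 1.14% of all mouse windows. The search describes letters in these windows and says nothing on binding.

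The table gives log2(normalized count + 1) for each sample. When the log2 and the added 1 were undone, 100% of the values came within 0.05 of whole multiples of 1 step per sample, so each value could also be read as a number of reads divided by a size factor between 0.934 and 1.071. The listed genes held 927603 to 1054236 reads in the Go6983 samples and 859777 to 929813 in the NT samples, and the depth over all genes is unknown. Every gene of the table differed between the groups by a log2 fold change of at least 1.00 in size, so these genes were preselected as changed. In the limma fit 98.5% of the 1577 genes passed an adjusted p of 0.05, with 68.8% higher and 29.7% lower in Go6983-treated cells, and in 99.7% the samples of the groups did not overlap. That *Lef1*, *Cdx1* and *Rnf43* passed is therefore what nearly every gene of the table did, and the p-values below were calculated after that selection. Sizes and directions carry the description.

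*Lef1* mRNA was much lower in Go6983-treated mESCs. It stood at 281.9 and 280.4 normalized counts in the Go6983 samples, against 2450 and 2199 in the NT samples. The means were 281 ± 1.05 in Go6983-treated cells and 2324 ± 177 in NT cells (SD, n = 2 each), or 8.27-fold lower with Go6983. The Go6983 samples almost coincided and lay far below both NT samples. These values rest on 302 and 262 recovered reads in the Go6983 samples and 2463 and 2152 in the NT samples. Exact Poisson 95% intervals, which cover counting error only, ran from 251 to 316 and from 248 to 317 normalized counts in the Go6983 samples, so their closeness is within what counting alone allows. On the log2 scale the change was -3.04 (standard error 0.11, 95% interval -3.31 to -2.77, limma adjusted p = 0.000161), and over the 4 Go6983-NT pairs of samples it lay between -3.12 and -2.96. In bulk RNA, fewer cells that express a gene and less of its RNA per cell cannot be told apart.

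*Cdx1* mRNA changed by a similar size in the other direction. It stood at 536 and 770 normalized counts in the Go6983 samples, against 51.7 and 83.8 in the NT samples. The means were 653 ± 165 in Go6983-treated cells and 67.8 ± 22.7 in NT cells (SD, n = 2 each), 9.63-fold higher with Go6983. The groups were well apart, although the replicates of both groups differed by more than those of *Lef1*, with gaps of 0.52 log2 between the Go6983 samples and 0.69 between the NT samples. For comparison, the median gap over the table was 0.25 log2 between the Go6983 samples and 0.28 between the NT samples. The log2 fold change was 3.27 (standard error 0.29, 95% interval 2.54 to 3.996, limma adjusted p = 0.000446), and the 4 pairs of samples gave 2.66 to 3.87. The NT level is low, at 52 and 82 reads, and the exact Poisson 95% intervals of the NT samples were 38.6 to 67.8 and 66.6 to 104 normalized counts.

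*Rnf43* mRNA was also higher with Go6983. It stood at 218 and 171 normalized counts in the Go6983 samples, against 36.8 and 51.1 in the NT samples. The means were 195 ± 33.4 in Go6983-treated cells and 43.9 ± 10.1 in NT cells (SD, n = 2 each), 4.43-fold higher with Go6983. Both Go6983 samples lay above both NT samples, and the 4 pairs gave log2 differences from 1.73 to 2.54. The log2 fold change was 2.13 (standard error 0.26, 95% interval 1.48 to 2.79, limma adjusted p = 0.000944). *Rnf43* had the fewest reads of the 3 genes, with 234 and 160 in the Go6983 samples and 37 and 50 in the NT samples. Without Go6983 replicate 1 the log2 fold change was 1.96 and its limma adjusted p rose to 0.0518, while the calls of *Lef1* and *Cdx1* held without any 1 of the 4 samples. With 2 samples a group an exact two-sided permutation test cannot give a p below 0.333, so none is given for single genes.

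**Figure D1:**
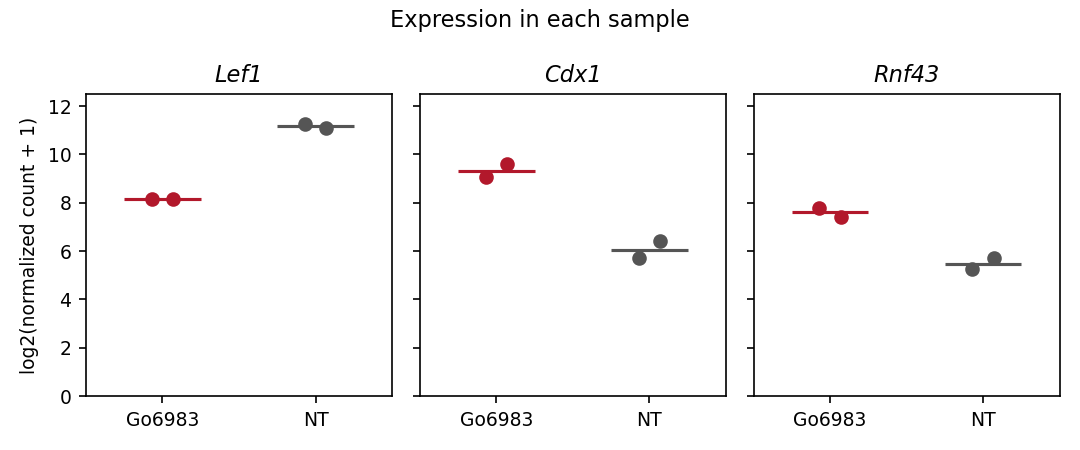
Expression of *Lef1*, *Cdx1* and *Rnf43* as log2(normalized count + 1) on the y axis, in the 2 Go6983 samples (red) and the 2 NT samples (grey), with 1 point per sample and a line at each group mean. Go6983 samples of *Lef1* sit at 8.14 and 8.14, below NT samples at 11.26 and 11.10, and those of *Cdx1* and *Rnf43* sit above their NT samples.

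The order of the 3 genes differed between the groups. Per kilobase of annotated exon, a scale on which genes of different length can be compared, *Cdx1* was the most abundant in Go6983-treated cells, at 306 and 440 normalized counts per kb. *Lef1*, at 32.1 and 31.9, and *Rnf43*, at 33.3 and 26.1, overlapped there. In NT cells *Lef1* led with 279 and 250 normalized counts per kb, then came *Cdx1* with 29.6 and 47.9 and *Rnf43* with 5.61 and 7.79, and none of these overlapped. The exon lengths count every annotated transcript of a gene, used in these cells or not.

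Ratios of reads between genes of the same library do not depend on how libraries are scaled. The *Lef1* to *Cdx1* read ratio was 0.526 and 0.364 in the Go6983 samples, against 47.4 and 26.2 in the NT samples. *Cdx1* thus had more reads than *Lef1* in both Go6983 samples, and far fewer in both NT samples. The *Lef1* to *Rnf43* read ratio was 1.29 and 1.64 in the Go6983 samples, against 66.6 and 43.0 in the NT samples. The *Cdx1* to *Rnf43* read ratio moved less, at 2.45 and 4.49 in the Go6983 samples, against 1.41 and 1.64 in the NT samples. A ratio shows unequal change of a pair of genes and not which of them changed.

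**Figure D2:**
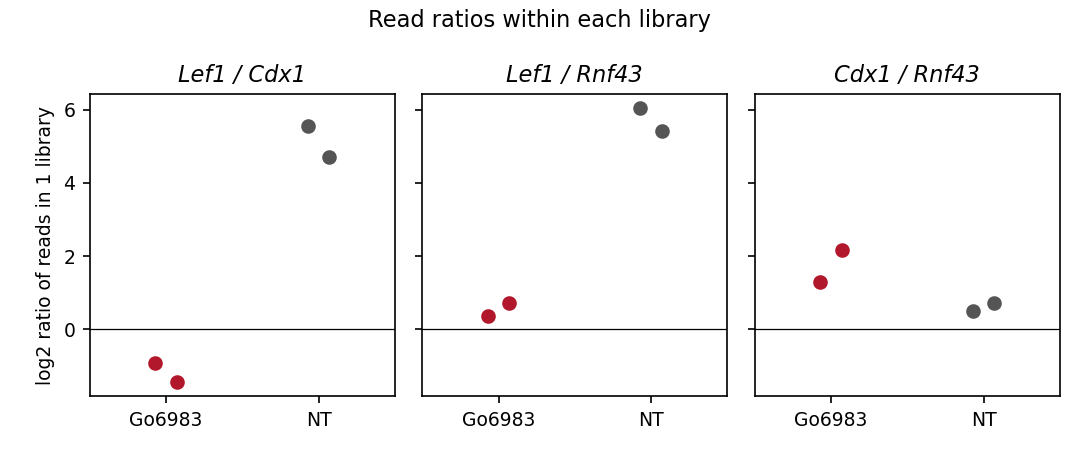
Log2 ratio of recovered reads on the y axis for *Lef1* over *Cdx1*, *Lef1* over *Rnf43* and *Cdx1* over *Rnf43*, where each point is a library of the Go6983 (red) or NT (grey) group and the line marks equal reads. *Lef1* over *Cdx1* sits at -0.93 and -1.46 in the Go6983 libraries and at 5.57 and 4.71 in the NT libraries.

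Among the genes of the table, *Lef1* and *Cdx1* were at the outer part of the range and *Rnf43* somewhat further in. Of the 478 genes with a negative log2 fold change, 59 had a larger one in size than *Lef1*, and the median was -1.49. Of the 1099 genes with a positive log2 fold change, 79 exceeded *Cdx1* and 200 exceeded *Rnf43*, and the median was 1.42. Under a scaling of libraries by the median ratio of the listed genes, which centres this preselected table by construction and moved log2 fold changes by a median of -1.10, the log2 fold change was -4.16 for *Lef1*, 2.15 for *Cdx1* and 1.02 for *Rnf43* (limma adjusted p = 4.11e-05, 0.00183 and 0.0262). All 3 directions and calls were kept under this scaling.

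**Figure D3:**
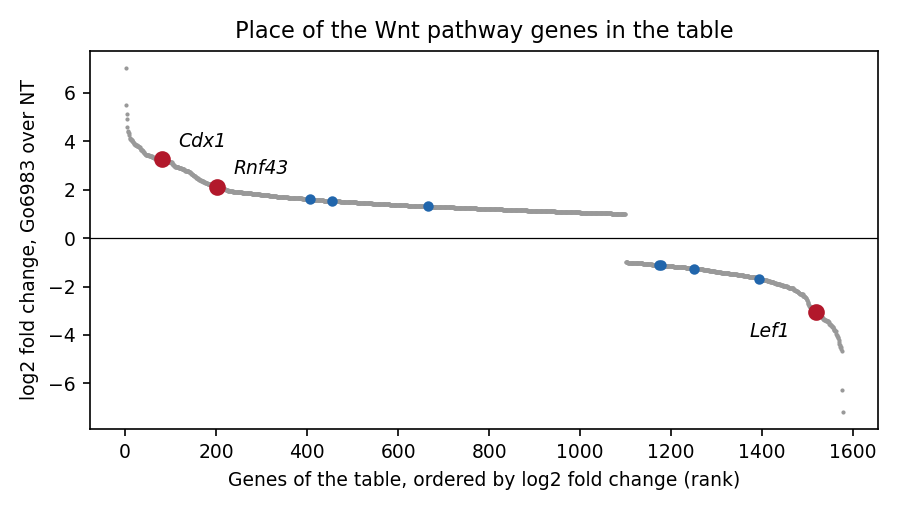
Log2 fold change of Go6983 over NT on the y axis for the 1577 genes of the table, ordered by it along the x axis, with *Lef1*, *Cdx1* and *Rnf43* in red and the other 7 Wnt pathway genes in blue. *Cdx1* and *Rnf43* sit at ranks 80 and 201 from the top and *Lef1* at rank 60 from the bottom, and the gap around 0 shows that the table was preselected.

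Of 116 genes in lists of the Wnt pathway and its targets, 10 were in the table, and the other 106 have no value in it and were not analysed here. With *Lef1*, *Cdx1* and *Rnf43* included, 5 of 10 rose and 5 fell (limma adjusted p below 0.05), beside 68.8% and 29.7% of the table. Their median log2 fold change was 0.093, beside 1.21 for the table. Each of them changed by at least 1.00 log2 in size, so this median reflects the even split and is not the change of any gene. The genes that rose were *Cdx1*, *Rnf43*, *Nkx1-2*, *Wnt11* and *Rspo4*, and those that fell were *Lef1*, *Dkk1*, *Csnk1g1*, *Myc* and *Tle4*. Under the median ratio scaling the counts were 2 and 5, beside 176 and 476 for the whole table. Fewer of these 10 genes were called when either Go6983 sample was left out, as were fewer genes of the whole table. Whether the Wnt genes lost calls more often than other genes was not tested.

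Of 23 Wnt ligands and R-spondins, 2 were in the table and both rose, where 68.8% of the table did. *Wnt11*, a ligand known mostly for signaling that does not pass through β-catenin, stood at 70.9 and 48.2 normalized counts in the Go6983 samples, against 21.9 and 17.4 in the NT samples. *Rspo4*, a secreted R-spondin that binds Lgr receptors and shields Frizzled from the ligase Rnf43, stood at 92.4 and 57.8 normalized counts in the Go6983 samples, against 20.9 and 39.9 in the NT samples. Both genes are low in all samples, and the *Rspo4* samples of each group were far apart. The log2 fold change was 1.54 for *Wnt11* (standard error 0.36, limma adjusted p = 0.00902) and 1.31 for *Rspo4* (standard error 0.43, limma adjusted p = 0.0266). The call of *Wnt11* was lost without NT replicate 2 (adjusted p = 0.0654), Go6983 replicate 1 (0.108) or Go6983 replicate 2 (0.0724), and that of *Rspo4* without NT replicate 1 (0.158), Go6983 replicate 1 (0.258) or Go6983 replicate 2 (0.129). Both were also lost under the median ratio scaling (0.425 and 0.788). The 19 receptors and co-receptors of the lists, the Frizzled genes among them, and the 3 genes of ligand processing have no value in the table.

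Of the extracellular inhibitors and the membrane ubiquitin ligases, *Dkk1* and *Rnf43* were in the table and moved in opposite directions. *Dkk1*, a secreted antagonist that binds the Lrp co-receptors and was the only listed one of 16 extracellular inhibitors, stood at 20.5 and 12.8 normalized counts in the Go6983 samples, against 56.7 and 53.1 in the NT samples. Its log2 fold change was -1.69 (standard error 0.37, limma adjusted p = 0.00730), with both Go6983 samples below both NT samples. Leaving out any 1 of the 4 samples took the call away, with limma adjusted p-values of 0.0608 and 0.0557 without NT replicate 1 and NT replicate 2, and of 0.0536 and 0.0825 without Go6983 replicate 1 and Go6983 replicate 2.

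Of 21 cytoplasmic transducers, *Csnk1g1* was in the table and fell. It encodes a membrane-bound casein kinase 1, one of the kinases known to phosphorylate the co-receptor Lrp6, and stood at 955 and 913 normalized counts in the Go6983 samples, against 1348 and 3722 in the NT samples. The NT samples were further from each other than NT replicate 1 was from the Go6983 samples. The log2 fold change was -1.26 (standard error 0.45, limma adjusted p = 0.0340), and -0.53 without NT replicate 2. The call was lost without Go6983 replicate 1 (adjusted p = 0.256) and without Go6983 replicate 2 (0.275), and also with a pseudocount of 0.1 (0.0538), with recovered reads and no size factor (0.0556) and with limma without trend (0.0820).

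Of 15 nuclear factors, *Lef1* and *Tle4* were in the table, and both fell, where 29.7% of the table did. *Tle4*, a Groucho family co-repressor that binds TCF/LEF factors, stood at 9474 and 10754 normalized counts in the Go6983 samples, against 23140 and 20917 in the NT samples. Its log2 fold change was -1.12 (standard error 0.11, limma adjusted p = 0.000488), and the replicates of each group were close together. *Lef1* was the only listed one of the 4 TCF/LEF family genes, so *Tcf7*, *Tcf7l1* and *Tcf7l2* were not analysed here.

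**Figure D4:**
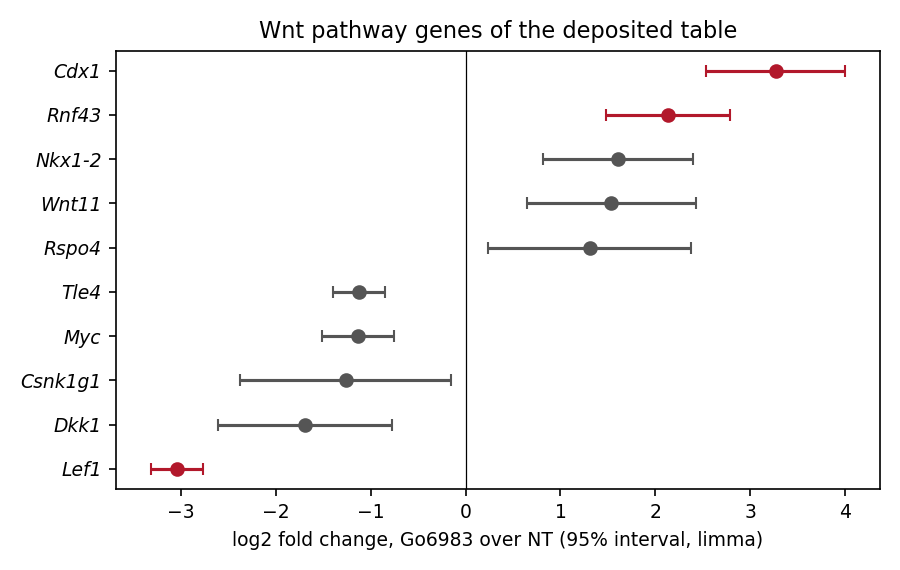
Log2 fold change of Go6983 over NT on the x axis for the 10 Wnt pathway genes of the table, with *Lef1*, *Cdx1* and *Rnf43* in red and the others in grey, where points are limma estimates and bars 95% intervals. *Cdx1*, at 3.27, and *Lef1*, at -3.04, lie at the ends, and the bars of *Csnk1g1* and *Rspo4* reach closest to 0.

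Of 28 targets of the pathway, 3 rose (*Cdx1*, *Rnf43* and *Nkx1-2*) and 3 fell (*Lef1*, *Dkk1* and *Myc*). The split was even, beside 68.8% and 29.7% in the table, and rests on few genes. Fewer of them were called when Go6983 replicate 1 was left out, as were fewer genes of the whole table. *Nkx1-2*, a homeobox gene of the caudal epiblast, stood at 123 and 106 normalized counts in the Go6983 samples, against 28.8 and 47.0 in the NT samples, or 1.61 on the log2 fold change scale (standard error 0.32, limma adjusted p = 0.00524). Its call was lost without Go6983 replicate 1 (adjusted p = 0.105), without Go6983 replicate 2 (0.0910) and under the median ratio scaling (0.299). *Myc*, which encodes a basic helix-loop-helix factor, stood at 1346 and 1019 normalized counts in the Go6983 samples, against 2500 and 2632 in the NT samples, or -1.13 on the log2 fold change scale (standard error 0.15, limma adjusted p = 0.00125). *Axin2* and *Sp5*, which are widely used as readouts of the pathway, have no value in the table and were not analysed here.

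*Cdx1* was the only one of the 3 *Cdx* genes in the table. It belongs to several other groups in which Wnt is only one of the inputs, and few of their members were listed. Of 19 posterior and primitive streak genes, 2 were in the table, *Cdx1* and *Nkx1-2*, and both rose, where 68.8% of the table did. Of 14 targets of retinoic acid, *Cdx1* and *Stra8* rose and *Crabp2* fell, beside 68.8% and 29.7% of the table. *Stra8*, a gene of germ cells entering meiosis, stood at 478 and 488 normalized counts in the Go6983 samples, against 183 and 171 in the NT samples. Its call was lost under the median ratio scaling, at a log2 fold change of 0.33 (adjusted p = 0.106). *Crabp2*, which encodes a retinoic acid binding protein, stood at 315 and 302 normalized counts in the Go6983 samples, against 639 and 623 in the NT samples. For both genes the samples of each group were close together and the groups did not overlap. Of 12 genes of the intestinal epithelium, *Cdx1* and *Slc15a1*, a peptide transporter gene, were in the table, and *Slc15a1* stood at 1499 and 1486 normalized counts in the Go6983 samples, against 502 and 472 in the NT samples.

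*Lef1* is also a marker of the formative and primed epiblast. Of 9 such markers 7 were in the table and all 7 fell, *Lef1* itself among them, beside 29.7% of all genes of the table. *Lef1* fell by more than *Fgf5* (log2 fold change -2.57) and by less than *Pou3f1* (-3.85). The study had already reported lower *Dnmt3a* and *Dnmt3b* expression in the treated cells. The marker list was chosen with earlier results of these data known, so the count of markers that fell is not an independent test. The summed level of the 7 listed epiblast markers was 21844 and 19998 normalized counts in the Go6983 samples, against 78628 and 70553 in the NT samples. No member was at 0. Most of this sum came from *Dnmt3a* and *Dnmt3b* in every sample. Of 10 markers of undifferentiated mESCs, 5 were in the table, and their summed level was 109303 and 113505 in the Go6983 samples, against 64797 and 65543 in the NT samples. Of these 5, *Tfcp2l1*, *Tbx3*, *Nanog* and *Klf4* rose and *Utf1* fell, beside 68.8% and 29.7% of the table. *Utf1* stood at 10757 and 9512 normalized counts in the Go6983 samples, against 22464 and 22283 in the NT samples. Under the median ratio scaling *Nanog* and *Klf4* changed sign and *Tbx3* was no longer called. *Pou5f1* and *Sox2* have no value in the table, so the labelled cell type could not be checked on them. Of 8 trophoblast markers 3 were in the table, *Tfap2c*, *Tead4* and *Esx1*, and all 3 rose, where 68.8% of the table did. Their summed level was 4767 and 5161 in the Go6983 samples, against 1962 and 1859 in the NT samples, and is mostly *Tfap2c*. The calls of *Tfap2c* and *Esx1* were lost under the median ratio scaling (limma adjusted p = 0.247 and 0.504). Summed levels of 3 neural markers of 6 were 525 and 427 in the Go6983 samples, against 1568 and 1365 in the NT samples. The neural sum is mostly *Neurod1*, which fell, as did *Pax6*, while *Lhx2* rose, at 92.4 and 78.1 normalized counts in the Go6983 samples, against 30.8 and 36.8 in the NT samples. The calls of *Pax6* and *Lhx2* were lost without Go6983 replicate 1 (adjusted p = 0.0848 and 0.0973) or Go6983 replicate 2 (0.101 and 0.0774), that of *Pax6* also without NT replicate 1 (0.0629) and that of *Lhx2* also under the median ratio scaling (0.653). The mesoderm and fibroblast lists had 1 listed marker each, *Kdr* at 74.7 and 35.3 normalized counts in the Go6983 samples, against 113 and 121 in the NT samples, and *Col1a2* at 78.4 and 82.4 in the Go6983 samples, against 31.8 and 40.9 in the NT samples. The 6 primitive endoderm markers have no value in the table. The part of other cell states in the changes of *Lef1*, *Cdx1* and *Rnf43* was not tested.

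The genes most like each of the 3 were found by the Euclidean distance between log2 profiles over the 4 samples, after each gene's own mean was taken away, among genes whose higher group averaged 50 normalized counts or more. Nearest to *Lef1* were *Gadd45g*, a gene induced by stress and DNA damage (distance 0.38), *Tnfsf11*, which encodes the cytokine RANKL (0.42), and *Car4*, a carbonic anhydrase gene (0.45). Nearest to *Cdx1* were *Gsx2*, a homeobox gene of the forebrain (0.48), *Gm853* (0.76) and *Lrrc31*, a gene of a leucine-rich repeat protein (0.78). Nearest to *Rnf43* were *Hpse*, which encodes heparanase (0.21), *Gcnt4*, a glycosyltransferase gene (0.24), and *Tmem117*, a transmembrane protein gene (0.31). *Cdx1* had the most distant neighbours of the 3. With 4 samples in 2 groups, such a profile holds little beyond the fold change and the replicate gaps.

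Other genes near the 3 loci were looked up in GENCODE M21. Of 8 annotated genes within 100 kb of *Cdx1*, 1 was in the table, *Slc6a7*, a proline transporter gene on the same strand as *Cdx1*. *Slc6a7* stood at 451 and 457 normalized counts in the Go6983 samples, against 146 and 136 in the NT samples, or 1.68 on the log2 fold change scale (standard error 0.14, limma adjusted p = 0.000428). *Slc6a7* thus rose, as 68.8% of the table did, by a smaller size than *Cdx1* and with closer replicates. The other genes near *Cdx1* have no value in the table. None of the 8 genes near *Lef1* and none of the 14 near *Rnf43* was in the table. Of these, 2 overlap *Lef1*, the antisense gene *Gm43352* and *Gm42449*, and 2 overlap *Rnf43*, *Gm25968* and *1110028F11Rik*. Whether the reads were counted by strand is not given in the sources used here, so reads of overlapping genes may not be separated.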

How the data were processed

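RNA-sequencing was compared between 2 Go6983 and 2 NT samples. The authors deposited 1 log2 value per gene and sample, with group means, fold changes, p-values and adjusted p-values of their own, which were not used. Bowtie 0.12.2 and mm9 are named in the submitters' processing notes. No source used here states the counter or annotation. The study selected genes changed by more than 2-fold and describes FPKM values, whereas the deposited values have 1 step for all genes of a sample, as scaled read counts would. The log2 values entered the fit as deposited, with the pseudocount of 1 they carry. Fold changes (Go6983 over NT) were fitted over all 1577 genes with limma 3.58.1 in R 4.3.3 (lmFit, eBayes with trend) without a filter or replicate block, adjusted by the Benjamini-Hochberg method, and called at an adjusted p below 0.05. The fit had 3.63 prior and 2 residual degrees of freedom. It was also run on simulated data in which most genes were unchanged, unlike this preselected table. That run therefore says nothing on the p-values given here. Whether the samples were separate cultures is not said, so p-values measure the spread between these samples. Replicates differed by more than counting error (chi-square per gene 7.49 between the Go6983 samples and 11.0 between the NT samples). GENCODE M21 gave symbols to 1572 genes. The members, gene lists and tests were chosen with earlier results of these data known. Named genes were the 3 genes, the listed members of the fixed lists, the 3 genes of nearest profile to each, and listed genes within 100 kb. Alternatives were pseudocounts of 0.1 and 10, filters at 10 and 50 normalized counts, 2 other scalings, limma without trend, limma-voom on recovered reads, the replicate number as a block, and each sample left out. Figures were drawn with matplotlib 3.10.9.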

Additional observations from a re-analysis of the deposited data

How the results depend on the processing

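Under the 13 alternatives *Lef1*, *Cdx1* and *Rnf43* kept their direction, with log2 fold changes from -4.16 to -2.96, 2.15 to 3.61 and 1.02 to 2.36, and kept an adjusted p below 0.05 except for *Rnf43* without Go6983 replicate 1 (log2 fold change 1.96, adjusted p = 0.0518). With each sample left out the log2 fold change of *Rnf43* ranged from 1.90 to 2.36. The numbers of genes higher and lower in the table, 1085 and 469, were 714 and 325 with a filter at 50 normalized counts, where fewer genes were tested, and 176 and 476 under the median ratio scaling, which by construction centres the table. With each sample left out they ranged from 431 to 858 and from 260 to 315. The 5 Wnt pathway genes higher became 2 under the median ratio scaling, and with a sample left out the counts of higher and lower ones ranged from 1 to 4 and from 3 to 4, while the targets had 1 to 3 higher and 2 lower in every case. Under the median ratio scaling the log2 fold changes of the marker genes *Nanog* and *Klf4* were -0.063 and -0.11, a sign change that its construction gives. Deviations of samples with the same replicate number had a correlation of 0.032 across genes, which are not independent. It gives noisy genes of few reads the same weight as others, so it cannot exclude pairs. The labels state no pairs, and the numbers are not read as such. For *Lef1*, *Cdx1* and *Rnf43* the standard errors were 0.097, 0.145 and 0.282 with a replicate block, against 0.110, 0.294 and 0.264 without. With the replicate number as a block the log2 fold changes of *Lef1*, *Cdx1* and *Rnf43* stayed -3.04, 3.27 and 2.13 (limma adjusted p = 0.0012, 0.0012 and 0.00479), 1070 genes were higher and 466 lower, and *Rspo4* had an adjusted p of 0.0509. The lowest samples of *Rnf43*, *Wnt11*, *Rspo4* and *Dkk1* held 37, 17, 21 and 12 reads, and how far depth sets their spread was not tested.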
